A study of Homo sapiens with 18 samples.

Results

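The histone genes of the HIST1, HIST2, HIST3 and HIST4 clusters were examined in RNA sequencing of bladder cancer cells after knockdown of ACAT1. Members were taken by name: every gene of the counts table whose name starts with HIST1H, HIST2H, HIST3H or HIST4H, apart from 10 names that mark a pseudogene. This left 70 of 39496 genes, of which 6 were H1 genes, 16 H2A, 21 H2B, 14 H3 and 13 H4. The HIST1 cluster on chromosome 6 held 51 of them, the HIST2 and HIST3 clusters on chromosome 1 held 15 and 3, and HIST4 on chromosome 12 held 1. RefSeq lists all 70 under newer symbols, 66 as protein-coding genes and 4 (HIST2H2BA, HIST2H2BB, HIST2H2BC and HIST2H2BD) as pseudogenes.

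The study asked what ACAT1, a mitochondrial enzyme of ketone body and isoleucine breakdown, does in bladder cancer cells. UM-UC-3 and T24, both established human bladder cancer lines labelled wild type, received siNC, the control siRNA, or one that targets ACAT1, either siACAT1-1 or siACAT1-2, which made 6 groups of 3 libraries from independent experiments. The time of harvest after transfection is not given in the sources used here, and every group received an siRNA. Each library is a bulk sample, so fewer cells that express a gene and less RNA per cell cannot be told apart.

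Histones wrap DNA into nucleosomes. H2A, H2B, H3 and H4 form the core, and the linker histone H1 binds where DNA enters and leaves it. The clustered genes are the replication-dependent ones: they have many copies, are used mainly in S phase, when new DNA has to be packed, and most of their transcripts end in a conserved stem-loop in place of a poly(A) tail. The stem-loop is bound by SLBP, and NPAT drives transcription of the clusters at the start of S phase. Histone genes outside the clusters, such as H3F3B, make variants throughout the cell cycle from polyadenylated transcripts.

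The stem-loop is shown first, because the libraries were made with a kit for messenger RNA and the end of the transcript bears on what such a kit captures. All 66 protein-coding members had a histone stem-loop of 16 bases within 150 bases after their own stop codon, at 22 to 67 bases from it (median 35) and at 66 different sites. Only 10 different sequences were found, and 4 of them covered 60 genes. In the sites below, taken from the reference genome GRCh38 on the strand of each gene, the stem-loop is in capitals.
HIST1H1C, chr6:26055744-26055759, minus strand: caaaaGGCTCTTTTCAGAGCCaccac
HIST1H2BK, chr6:27146366-27146381, minus strand: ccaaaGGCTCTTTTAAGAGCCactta
HIST1H4H, chr6:26285131-26285146, minus strand: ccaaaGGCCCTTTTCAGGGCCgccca
HIST1H4I, chr6:27139654-27139669, plus strand: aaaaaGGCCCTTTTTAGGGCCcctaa
The sequence of HIST1H1C, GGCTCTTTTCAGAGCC, was found in 38 genes, that of HIST1H2BK in 10, that of HIST1H4H in 8 and that of HIST1H4I in 4. The sites lie in the 3' untranslated region. The gene span counted by the authors ran past the stem-loop in 33 genes and ended at or before it in 33.

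The polyadenylation signal AATAAA followed the stem-loop within 30 bases in 4 of the 66 genes. These were the H1 gene HIST1H1C, the H2B gene HIST1H2BD and the H2A copies HIST2H2AA3 and HIST2H2AA4, and all 4 belong to the 10 members with the highest mean expression. Within 2000 bases after the stem-loop AATAAA was found in 56 genes. A match of letters does not show that a site is used.

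Promoters of 61 members were found in the RefSeq table of GRCh38.p14, 65 in all since some genes have more than 1 start, each with 250 bases before and 50 after the start. Searched on both strands, the TATA box TATAAA was present in 66.2% of them, against 11.5% of all 35116 promoters of the table. CCAAT was present in 86.2% against 34.6%, and it divided the families: all H1, H2A, H2B and H3 promoters held it, but only 18.2% of the H4 promoters. The octamer ATTTGCAT, the binding site of OCT1, was present in 38.5% against 1.77%. It was found in 73.7% of the H2B and 66.7% of the H2A promoters, in none of the 6 H1 and 11 H4 promoters and in 1 of 14 H3 promoters, a start of HIST1H3D that is the same window as the HIST1H2AD promoter.

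Many of the H2A and H2B genes are arranged head to head. There were 13 pairs of members that point away from each other with 218 to 356 bases between their starts. The shortest gap, of 218 bases, lies between HIST1H2BC on the minus strand and HIST1H2AC on the plus strand, and it is shown because these are the H2B gene with the largest change after knockdown and the H2A gene with the most reads. The sequence is that of the plus strand of GRCh38, and the capitals mark CCAAT (3 matches) and the octamer (1 match), in either orientation. The gap ends at the annotated starts, and the RefSeq promoters of both genes, which reach past them, also hold TATAAA.
HIST1H2BC to HIST1H2AC, chr6:26123927-26124144: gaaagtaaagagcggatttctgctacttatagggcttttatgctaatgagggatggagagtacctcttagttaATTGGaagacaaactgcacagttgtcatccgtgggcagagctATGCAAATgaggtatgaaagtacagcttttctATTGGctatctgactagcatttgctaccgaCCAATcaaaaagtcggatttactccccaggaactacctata

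Read depth was low for these genes. Of 25163490 to 34417230 reads counted on genes per library, 765 to 4795 fell on the 70 members, 0.0022 to 0.0168% of the total. A median count of at least 10 reads per library was reached by 23 members and of at least 100 by 5, while 29 never exceeded 10 reads in any library. HIST1H1C had 6994 reads over the 18 libraries (19.4% of all histone reads), HIST1H2AC 5830 (16.1%), HIST3H2A 3712, HIST1H2BK 2492 and HIST1H2BD 2188, and these 5 genes held 58.7% together. Most counts were even numbers, 71.4 to 75.1% of the counts from 1 to 20 over all genes. Low counts may thus hold both mates of a read pair. Median changes with halved counts are given with the alternatives. The knockdown of ACAT1 was present in every library: its expression was 44.1 to 47.4 RPKM (reads scaled to exon length and to the counted reads of the library) with siNC in UM-UC-3 cells against 1.83 to 3.59 RPKM with either siRNA, and 14.6 to 17.1 against 0.671 to 1.46 RPKM in T24 cells. The keratins KRT8 and KRT18 of epithelial cells were expressed in both lines, while the epithelial gene CDH1 did not exceed 0.0326 RPKM, GATA3 did not exceed 0.371 RPKM and the urothelial gene UPK2 did not exceed 0.660 RPKM. Of the leukocyte markers, PTPRC was at or under 0.0170 RPKM in every library, while CD68, a lysosomal gene used as a macrophage marker, was at 15.7 to 216 RPKM.

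Levels between genes are compared here in RPKM, as means over the 18 libraries. The linker histone gene HIST1H1C was the highest, at a mean level of 20.7 RPKM, with a range of 13.6 to 67.1 RPKM in UM-UC-3 cells and 4.53 to 15.998 RPKM in T24 cells. The other H1 gene among the 10 highest was HIST1H1E, at 1.58 RPKM. HIST1H2BK, an H2B gene, followed at 12.6 RPKM, and the H2B gene HIST1H2BD was at 4.81 RPKM. Among the H2A genes, HIST3H2A had a mean level of 7.87 RPKM, HIST1H2AC 6.67, HIST2H2AA3 3.94, HIST2H2AA4 1.53 and HIST1H2AE 1.41 RPKM. Of the H4 genes, HIST1H4I reached 1.57 RPKM, and no H3 gene was among the 10 highest. The median over genes of the median count per library was 8 reads in the H2A family, 5 in H2B, 3 in H1, 2.25 in H3 and 2 in H4.

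**Figure D1:**
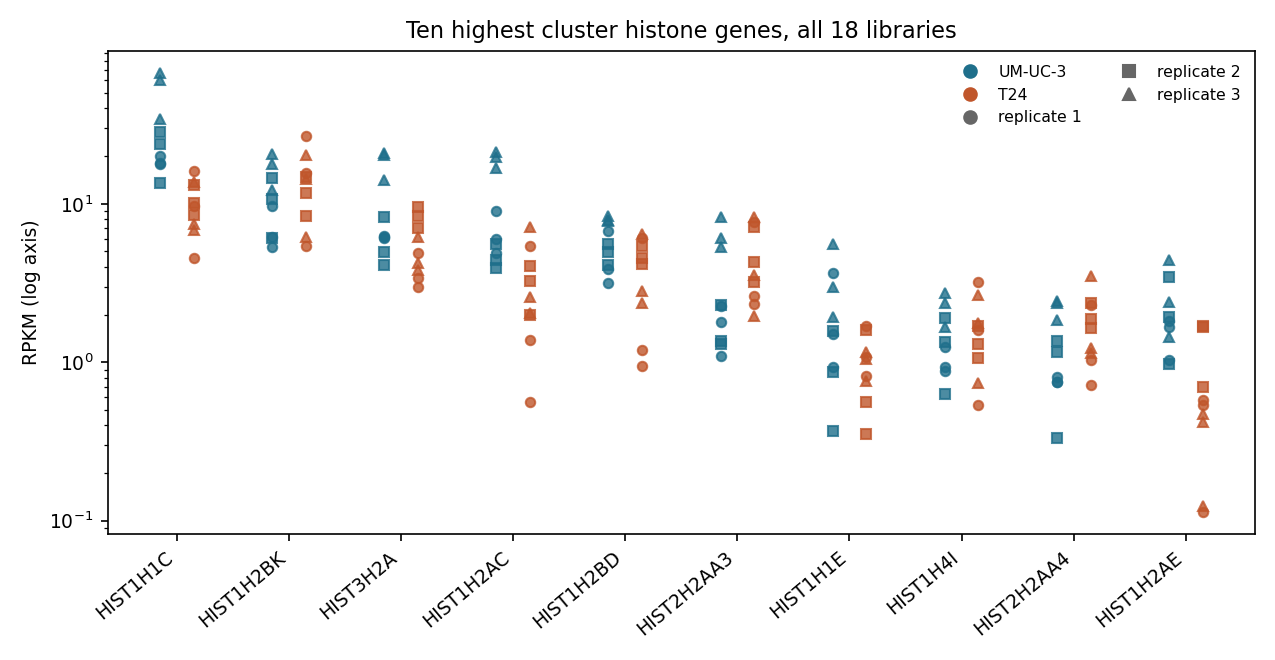
The 10 cluster histone genes with the highest mean level, in RPKM on a log axis. Each point is 1 of the 18 libraries, with the cell line by colour and the replicate number by shape. HIST1H1C reached 67.1 RPKM in replicate 3 of UM-UC-3 siACAT1-1. The triangles of UM-UC-3 replicate 3 lie above the other UM-UC-3 points for HIST1H1C, HIST3H2A, HIST1H2AC, HIST1H2BD, HIST2H2AA3 and HIST2H2AA4.

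Levels within head-to-head pairs were unequal in most cases. HIST1H2BK had a mean level of 12.6 RPKM, and its H2A neighbour HIST1H2AH had 0.110 RPKM. HIST3H2A was at 7.87 RPKM and HIST3H2BB at 0.0465 RPKM, the largest ratio among the 13 pairs. HIST1H2AC was at 6.67 RPKM and HIST1H2BC at 0.769 RPKM. The levels were closest in HIST2H2BE and HIST2H2AC (0.546 and 0.643 RPKM). In RPKM the H2A gene was the higher one in 10 of the 12 pairs of an H2A with an H2B gene. HIST2H2BC and HIST2H2BD, the H2B members paired with HIST2H2AA4 and HIST2H2AA3, are pseudogenes. RPKM also depends on the exon length counted. In reads the order was the other way for HIST2H2BE and HIST2H2AC (623 and 133) and for HIST1H2BG and HIST1H2AE (502 and 377). It was also the other way for HIST1H2BJ and HIST1H2AG (301 and 460).

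**Figure D2:**
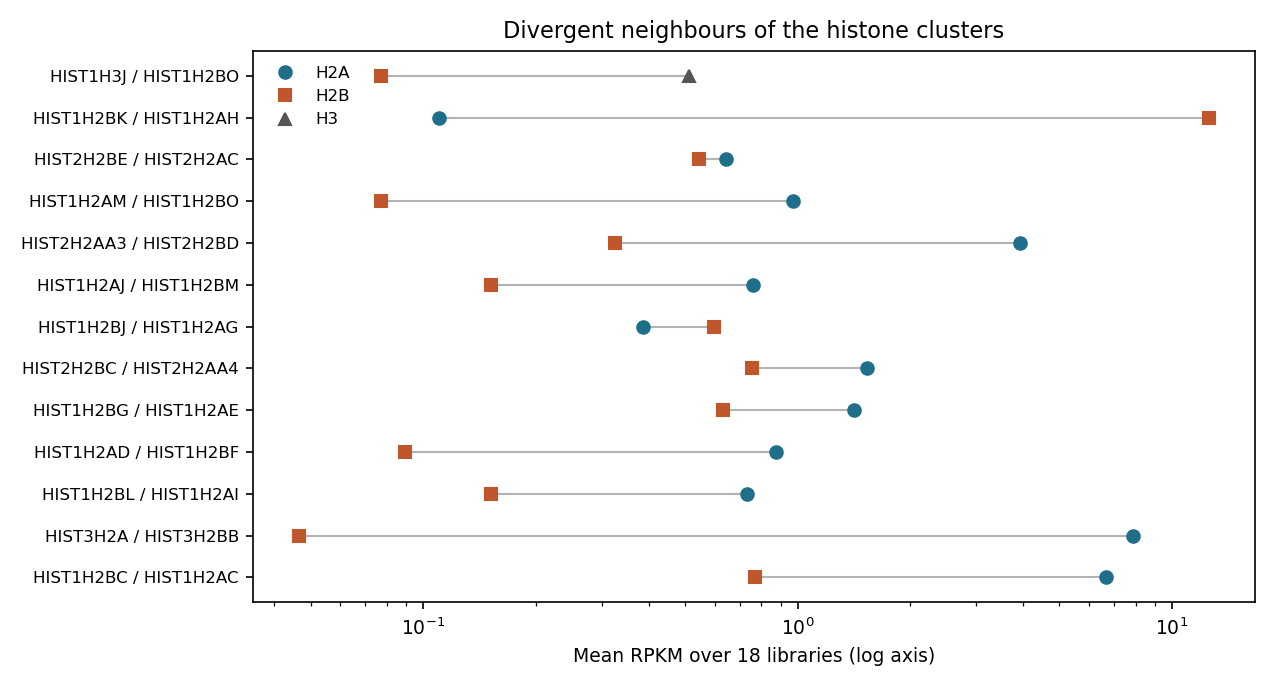
Mean level over 18 libraries, in RPKM on a log axis, of both genes in each of the 13 head-to-head pairs, ordered by the length of the gap from 218 bases at the bottom to 356 at the top. A line joins the genes of a pair, such as HIST3H2A at 7.87 and HIST3H2BB at 0.0465 RPKM.

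Some values cannot be assigned to 1 gene. In 7 members, HIST2H4A, HIST2H4B, HIST2H3C, HIST2H3A, HIST2H2AA3, HIST2H2AA4 and HIST1H4K, every stretch of 100 bases of the counted exons occurs again in the clusters, and in 48 members no stretch does. How reads with several positions were counted is not given in the sources used here, so the split of reads between such copies, as between HIST2H2AA3 and HIST2H2AA4, is uncertain. Counted exons overlapped another gene of the same strand in 7 members and of the opposite strand in 10. HIST1H3J and HIST1H2AM, which share most of the HIST1H2AM exon on the same strand, had 210 and 201 reads in all, and their reads cannot be told apart.

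Libraries with the same replicate number in a cell line deviated together from their groups, and in UM-UC-3 cells the histone genes differed by the number. The summed level of the 70 genes, in CPM (counts scaled to the library total), was 58.1, 48.1 and 127.0 in replicates 1, 2 and 3 with siNC. It was 75.3, 58.8 and 159.1 CPM with siACAT1-1 and 66.0, 77.2 and 168.1 CPM with siACAT1-2. Replicate 3 stood above replicates 1 and 2 in each of the 3 groups, with a mean of 151.4 CPM against 66.5 and 61.4 CPM. The genes of a list for S phase (18 genes, such as those of the MCM helicase and PCNA) ran the other way in these libraries: their summed level averaged 1323 CPM in replicate 3 against 2717 and 3217 CPM in replicates 1 and 2. In T24 cells the histone means by replicate number were 40.9, 47.0 and 46.4 CPM. What a number marks is not given in the sources used here.

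**Figure D3:**
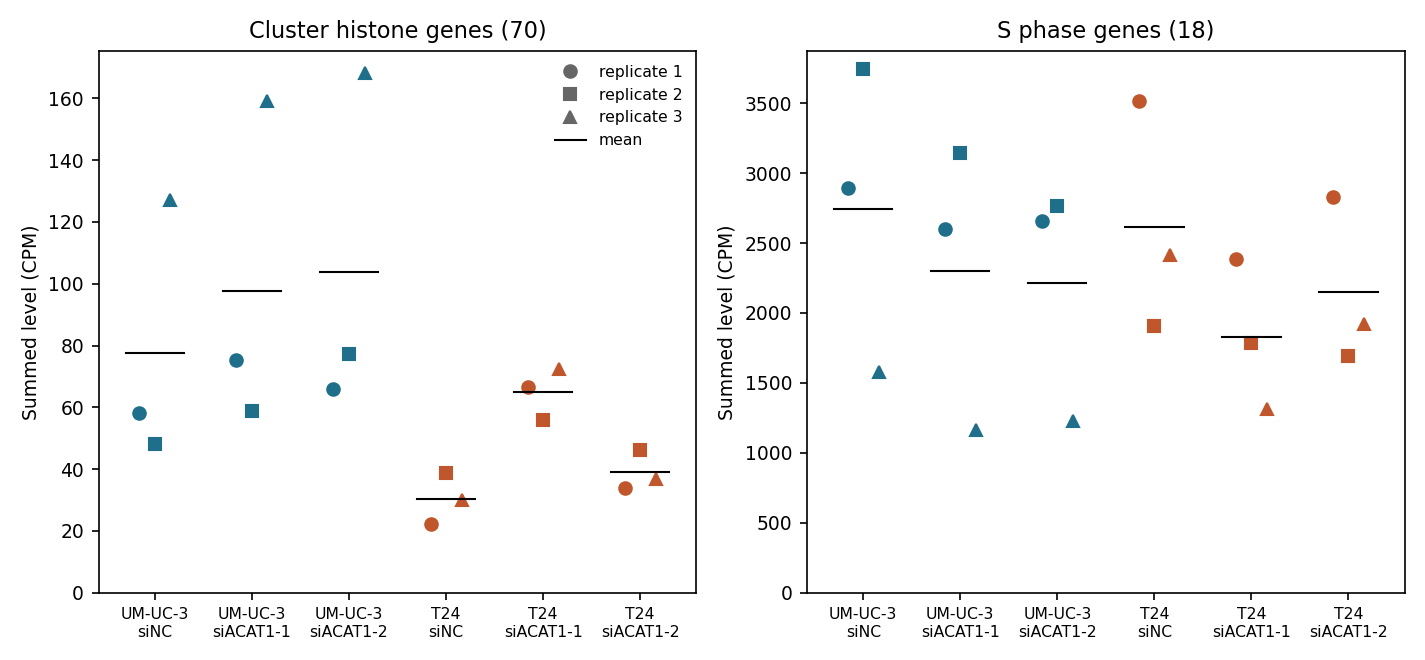
Summed level in CPM of the 70 cluster histone genes (left) and of 18 S phase genes (right) in the 18 libraries, with replicate number by shape and the mean of each group as a bar. The UM-UC-3 replicate 3 libraries are the highest for the histone genes (127.0 to 168.1 CPM) and the lowest of their line for the S phase genes (1163 to 1579 CPM).

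The counts of the 18 libraries were tested together with edgeR, by group, and again with replicate number (separately in the 2 lines) added as a block. The filter on low counts kept 20144 genes, among them 37 of the 70 members (4 of H1, 12 of H2A, 11 of H2B, 4 of H3 and 6 of H4). The other 33 members had too few reads to be tested. With the T24 libraries filtered alone only 19 members would have passed, so that others among the 37 entered through UM-UC-3 cells, and the counts and medians over the 37 are given as descriptions. Every adjusted p below comes from the quasi-likelihood test of edgeR, adjusted by Benjamini-Hochberg over all genes tested, and genes under 0.05 are referred to as called.

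Between replicate numbers in UM-UC-3 cells, 15 of the 37 members were called, against 24.7% of all genes, and all 15 were highest in replicate 3. The H2A genes called were HIST3H2A (log2 difference of replicate 3 from replicate 1 of 1.54, adjusted p = 3.2e-06), HIST1H2AC (1.53), HIST2H2AA3 (1.91) and HIST2H2AA4 (1.48). The H1 genes were HIST1H1D, with the largest difference (2.96, adjusted p = 0.012), HIST1H1C (1.44) and HIST1H1E (0.86). HIST1H2BK (1.24), HIST2H2BE (1.27), HIST1H2BN (0.89) and HIST2H2BF (1.54) were called in the H2B family. The H3 gene HIST1H3E (0.70) and the H4 genes HIST1H4H (1.30), HIST1H4I (1.11) and HIST2H4A (1.11) made up the rest. The median difference of replicate 3 from replicate 1 over the 37 members was 0.82 on the log2 scale, with 29 above 0. All 18 S phase genes were called as well, with a median of -1.27. The number of histone calls fell to 8 without replicate 3 of siACAT1-1.

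In T24 cells 3 members were called between replicate numbers, against 44.1% of all genes. HIST3H2A was higher in replicate 2 than in replicate 1 by 1.00 on the log2 scale and in replicate 3 by 0.23, and HIST1H2AE differed by 1.60 in replicate 2 and by -0.31 in replicate 3. HIST1H2BH was lowest in replicate 2 (-1.05) and highest in replicate 3 (0.62). The count rose to 6 without replicate 1 or replicate 2 of siACAT1-1 in T24 cells and to 5 without replicate 1 of either ACAT1 siRNA in UM-UC-3 cells or replicate 3 of siACAT1-2 in T24 cells. T24 replicate 2 also stood apart in other genes, with KRT8 at 94.7 to 143 RPKM against 288 to 435 RPKM in replicates 1 and 3 and CD68 at 121 to 169 against 15.7 to 41.5 RPKM.

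**Figure D4:**
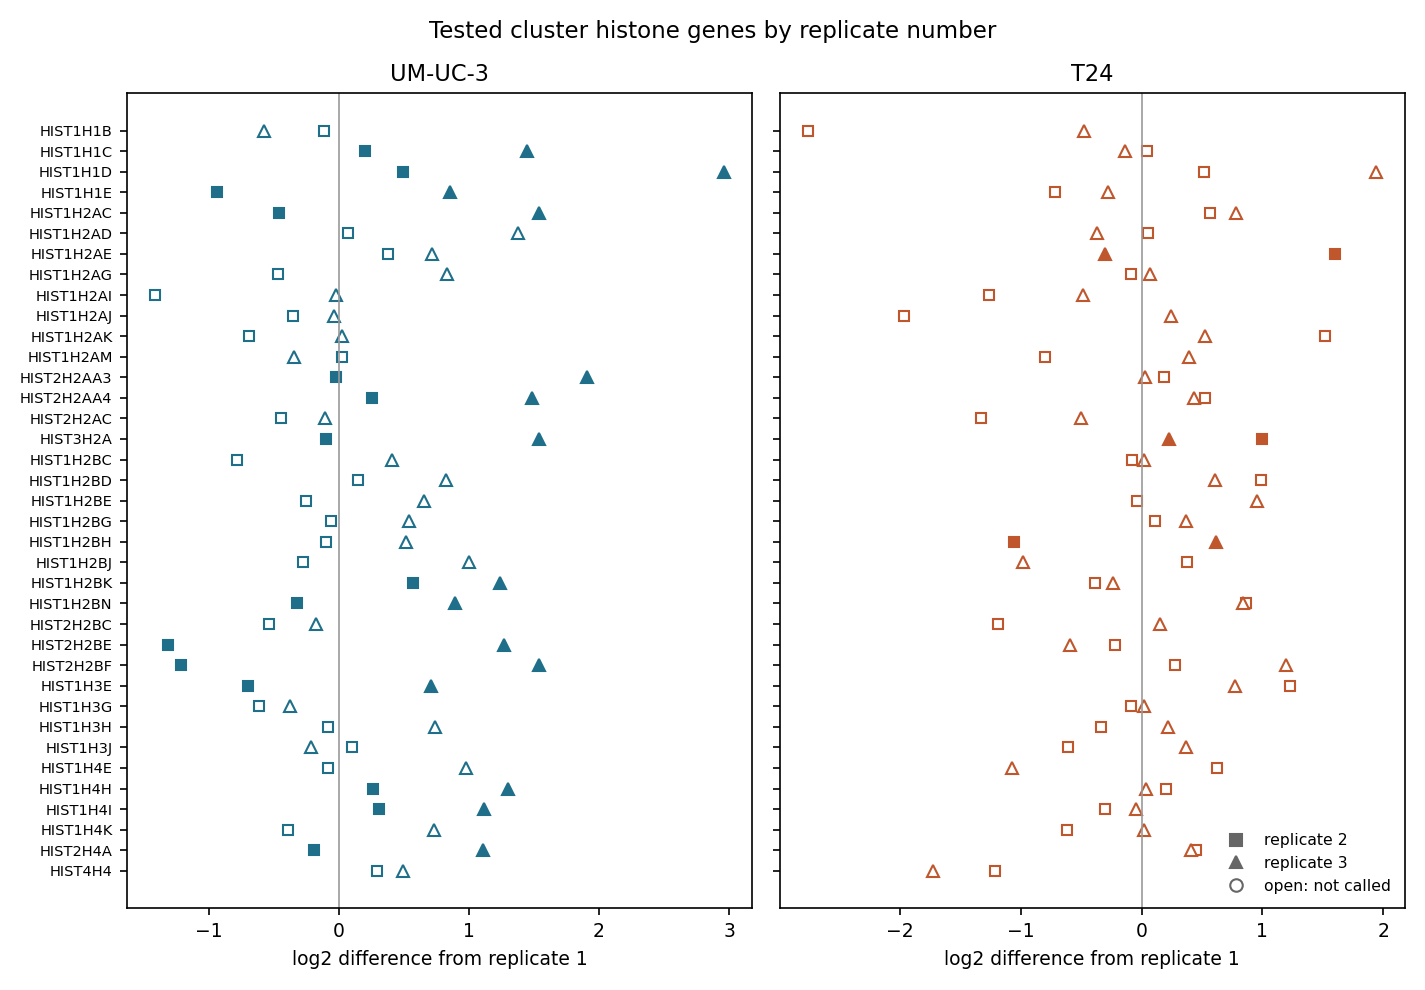
Log2 difference of replicates 2 (squares) and 3 (triangles) from replicate 1 for the 37 tested cluster histone genes in UM-UC-3 (left) and T24 cells (right). Filled symbols mark genes called between replicate numbers, 15 on the left and 3 on the right, and the filled triangles on the left all lie above 0.

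Of the 4 comparisons with siNC, that of siACAT1-1 in T24 cells had the most histone genes called. Their summed level was 22.2, 38.7 and 30.1 CPM in replicates 1, 2 and 3 with siNC and 66.6, 56.0 and 72.3 CPM with siACAT1-1, so that every siACAT1-1 library was above every siNC library. Without the block 1 of the 37 members was called, the H2B gene HIST1H2BC, against 0.134% of all genes. Its level was 0.279, 0.170 and 0.171 RPKM with siNC and 1.64, 1.27 and 2.53 RPKM with siACAT1-1, and the groups did not overlap. It was higher by 3.09 on the log2 scale (standard error 0.57, adjusted p = 0.041), from 16 reads over the siNC libraries and 122 over the siACAT1-1 libraries. This call was lost in 13 of the 18 fits that left out 1 library, all except those without replicate 2 or 3 of siNC or replicate 2 of siACAT1-1 in UM-UC-3 cells or replicate 2 of either ACAT1 siRNA in T24 cells. Without replicate 2 of T24 siACAT1-1, 3 members were called.

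With the replicate number as a block, 12 members were called in this comparison and all 12 rose, against 14.1% of all genes. For each of the 12, every siACAT1-1 library was above every siNC library. Among all tested members this held for 15, and the reverse held for 0. The 12 were selected by a test on these same libraries, which favours such separation. Its share over all genes was not computed, so the separation is given as a description. In the H2B family 5 of 11 tested genes rose. HIST1H2BK was at 5.41, 8.38 and 6.18 RPKM with siNC and at 26.7, 11.7 and 20.3 RPKM with siACAT1-1 (log2 fold change 1.53, standard error 0.24, adjusted p = 0.00032). HIST1H2BC had a log2 fold change of 3.07 (adjusted p = 0.00046) and HIST2H2BE, a gene of the HIST2 cluster, of 2.10 (standard error 0.40, adjusted p = 0.0013). HIST2H2BE was at 0.212, 0.259 and 0.0650 RPKM with siNC and at 0.808, 0.680 and 0.761 RPKM with siACAT1-1, and HIST1H2BD and HIST1H2BN rose by 1.40 and 1.66 on the log2 scale. All 11 tested H2B genes had a log2 fold change above 0, with a median of 1.53.

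Of the 12 tested H2A genes 3 rose with the block. HIST1H2AC was at 0.557, 2.00 and 2.05 RPKM with siNC and at 5.45, 4.07 and 7.12 RPKM with siACAT1-1, a rise by 1.99 on the log2 scale (standard error 0.29, adjusted p = 0.00046). HIST2H2AA3 was at 2.33, 3.23 and 1.95 RPKM and at 7.67, 7.19 and 8.25 RPKM (log2 fold change 1.64, adjusted p = 0.00024). Its copy HIST2H2AA4 had a log2 fold change of 1.18. Both genes of the head-to-head pair HIST1H2BC and HIST1H2AC were therefore among those that rose.

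Among the H4 genes 3 of 6 rose with the block: HIST1H4I (log2 fold change 1.59, adjusted p = 0.0030), HIST1H4H (1.52, adjusted p = 0.0051) and HIST2H4A (1.22, adjusted p = 0.013). HIST1H4I was at 0.539, 1.07 and 0.744 RPKM with siNC and at 3.20, 1.31 and 2.64 RPKM with siACAT1-1. The linker histone gene HIST1H1C, at 4.53, 10.1 and 7.44 RPKM with siNC, was at 15.998, 13.2 and 13.7 RPKM with siACAT1-1, a rise by 1.00 on the log2 scale (standard error 0.23, adjusted p = 0.0079). The other 3 tested H1 genes had log2 fold changes below 0, the lowest being HIST1H1B at -2.01 (standard error 0.89, adjusted p = 0.14), and none of the 4 tested H3 genes was called. Over the 37 members the median log2 fold change was 0.75 without the block, against 0 over all genes tested.

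In the same libraries 14 of the 18 S phase genes fell with the block (median log2 fold change -0.50), against 14.1% of all genes called in either direction. The summed level of the S phase genes was 2614 ± 820 CPM (SD, n = 3) with siNC and 1827 ± 537 CPM with siACAT1-1. Without the block none of the 18 was called. Of the 12 histone genes called, 10 were also among the 15 called between replicate numbers in UM-UC-3 cells, a comparison that shares none of these libraries but was tested in the same model. Both sets come from the 37 members with enough reads to be tested. The share of such an overlap over all genes was not computed, so the 10 are given as a description.

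In T24 cells with siACAT1-2 the H2B gene HIST1H2BK and the H4 gene HIST1H4I were called higher, and only with the block. The summed level was 33.9, 46.3 and 36.8 CPM, which overlapped the range with siNC. Without the block 0 of 37 members were called, against 0.283% of all genes, with 4 at an unadjusted p under 0.05 and 0 called by DESeq2. With the block 2 were called, both higher, a smaller share than the 8.57% of all genes called. HIST1H2BK was at 15.5, 14.7 and 14.3 RPKM with siACAT1-2, above all siNC libraries, a rise by 1.17 on the log2 scale (standard error 0.24, adjusted p = 0.0038, and 0.34 without the block). HIST1H4I was at 1.60, 1.70 and 1.78 RPKM, also above all siNC libraries, with a log2 fold change of 1.13 (adjusted p = 0.038, and 0.46 without the block). The largest rise among tested members that were not called was that of HIST4H4 (2.05 without the block, standard error 1.08), with 5 reads over the siNC libraries. HIST1H3G, with 4 reads over the siNC libraries, had no read with siACAT1-2. The median over the 37 members was 0.16 without the block, against 0.01 over all genes.

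In UM-UC-3 cells no histone gene was called after knockdown. With siACAT1-1 0 of 37 members were called without the block (0.00993% of all genes were) and 0 with it (2.9% of all genes). With siACAT1-2 0 were called without the block (0.0546% of all genes) and 0 with it (1.45% of all genes). DESeq2 called 0 in either comparison, and 2 and 1 members had an unadjusted p under 0.05 without the block. With siACAT1-1 these were HIST1H3H (log2 fold change -1.28, standard error 0.53, adjusted p = 0.94) and HIST1H4H (1.05, standard error 0.47, adjusted p = 0.94), and with siACAT1-2 it was HIST1H2BK (0.89, standard error 0.40, adjusted p = 1.0). With siACAT1-2 the next was HIST1H4I (0.73, standard error 0.44). The largest values among tested members were those of HIST2H2BF above 0 (1.63 and 1.40) and of HIST1H1B below 0 (-1.51 and -0.74).

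HIST1H1C shows the spread within these groups. Its level was 17.8, 13.6 and 34.1 RPKM with siNC, 19.98, 23.8 and 67.1 RPKM with siACAT1-1 and 18.0, 28.4 and 60.3 RPKM with siACAT1-2. Each siACAT1 library was above the siNC library of its own number, but the groups overlapped. The median log2 fold change over the 37 members was 0.32 with siACAT1-1 and 0.39 with siACAT1-2, and without replicate 3 of siACAT1-1 the first was -0.01. In T24 cells the effect of siACAT1-1 on histone genes was not shown to differ from that in UM-UC-3 cells: over both siRNAs, a test of whether knockdown acted differently in the lines called 0 of 37 members without the block (0% of all genes) and 0 with it (0.144% of all genes). DESeq2 called 0 as well. There were 2 members at an unadjusted p under 0.05 in the first of these, HIST1H4K (2.22, standard error 0.81) and HIST1H3G (3.08, standard error 1.29). The difference with siACAT1-1 alone was not tested.

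**Figure D5:**
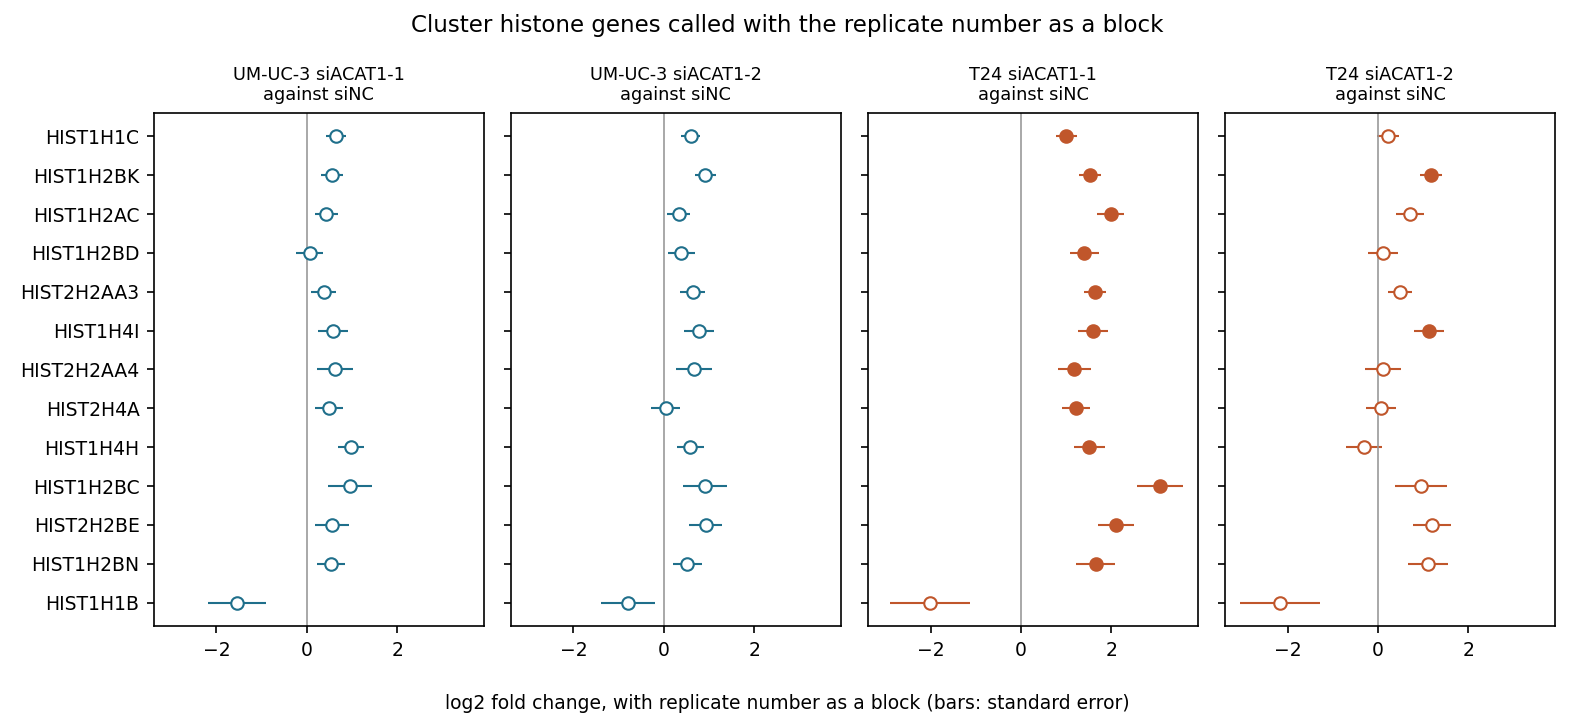
Log2 fold change with the replicate number as a block, for the 13 cluster histone genes called in a comparison with siNC. Bars are standard errors and filled symbols mark an adjusted p under 0.05, 12 genes with siACAT1-1 and 2 with siACAT1-2 in T24 cells and none in the other line; HIST1H1B was called only over all 4 comparisons.

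Over both siRNAs and both cell lines 0 of 37 members were called without the block, against 0.238% of all genes, with 9 at an unadjusted p under 0.05 and 3 called by DESeq2. The lowest p were those of HIST1H2BK (log2 fold change 1.06, standard error 0.26, adjusted p = 0.11) and HIST1H2BC (1.46, standard error 0.36, adjusted p = 0.11). With the block 10 were called, against 12.4% of all genes, of which 9 rose and 1 fell. The 4 largest rises were those of HIST1H2BC (1.47, adjusted p = 0.0049), HIST2H2BE (1.19, adjusted p = 0.0028), HIST1H2BK (1.04, adjusted p = 0.00013) and HIST1H4I (1.02, adjusted p = 0.0027). HIST1H2BN, HIST1H2AC, HIST2H2AA3, HIST1H4H and HIST1H1C rose by 0.62 to 0.96 on the log2 scale. Without the 3 replicate 3 libraries of UM-UC-3 cells 6 were called with the block.

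HIST1H1B, a linker histone gene, was the only member that fell. Its level in UM-UC-3 cells was 0.624, 0.732 and 0.666 RPKM with siNC, 0.416, 0.0957 and 0.197 RPKM with siACAT1-1 and 0.411, 0.615 and 0.206 RPKM with siACAT1-2. In T24 cells it was 0.512, 0.104 and 0.314 RPKM with siNC, 0.109, 0 and 0.117 RPKM with siACAT1-1 and 0.101, 0 and 0.0924 RPKM with siACAT1-2. The siRNA libraries were below all siNC libraries of their line except with siACAT1-1 in T24 cells, where the groups overlapped. The log2 fold change over all 4 comparisons was -1.63 with the block (standard error 0.45, adjusted p = 0.019) and -1.61 without it (adjusted p = 0.21), and it rested on 62 reads over the 6 siNC libraries and a median of 4 reads per library.

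The siRNAs were also set against each other over both lines (siACAT1-2 minus siACAT1-1). Without the block 0 of 37 members were called, against 2.66% of all genes, while DESeq2 called 1. At an unadjusted p under 0.05 there were 2, HIST1H4H (-1.14, standard error 0.35, adjusted p = 0.086) and HIST1H2BC (-1.10, standard error 0.37, adjusted p = 0.12). With the block 4 were called, against 20.6% of all genes, and all 4 were lower with siACAT1-2: HIST1H4H, HIST1H2BC, HIST2H4A and HIST1H2AC. HIST1H4H in T24 cells was at 0.974, 0.705 and 0.717 RPKM with siACAT1-1 and at 0.0955, 0.361 and 0.233 RPKM with siACAT1-2, near its siNC level of 0.228, 0.328 and 0.297 RPKM. ACAT1 itself was lower with siACAT1-2 than with siACAT1-1 in T24 cells (0.671 to 0.916 against 1.17 to 1.46 RPKM).

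Between the lines under siNC, 14 of 37 members were called without the block and all 14 were higher in UM-UC-3 cells, while 44.1% of all genes were called in either direction, a larger share than that of the members. Since many of the 37 passed the filter through UM-UC-3 cells, where they are higher, their direction is given as a description. According to the paper, UM-UC-3 cells were kept in MEM and T24 cells in RPMI medium, so line and medium cannot be told apart. The 4 tested H3 genes were among them, with 5 of 12 H2A genes, 3 of 11 H2B genes, 1 of 4 H1 genes and 1 of 6 H4 genes. Of these H3 genes, HIST1H3G had 6 reads over all T24 libraries. The reads of HIST1H3J cannot be told apart from those of the H2A gene HIST1H2AM. The largest differences were those of HIST1H3E (log2 difference 2.68, standard error 0.73, adjusted p = 0.0068), HIST1H2BN (2.66, adjusted p = 0.0017), HIST1H2BH (2.64, standard error 0.50, adjusted p = 0.00042) and HIST1H2AC (2.54, standard error 0.70, adjusted p = 0.0084). HIST1H2BH was at 1.91, 1.57 and 3.03 RPKM in UM-UC-3 cells and at 0.282, 0.241 and 0.554 RPKM in T24 cells, without overlap. HIST1H3E was at 0.450, 0.256 and 1.04 RPKM and at 0.0434, 0.185 and 0.0533 RPKM. HIST1H1C was higher by 1.63 on the log2 scale (adjusted p = 0.012).

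The median difference over the 37 members was 1.44, against 0.03 over all genes tested, and with no filter it was 1.20 over all 70 members, against 0 over all genes. The number of calls fell to 6 when replicate 3 of UM-UC-3 siNC was left out, to 9 when replicate 3 of T24 siNC was, and to 10 without all replicate 3 libraries of UM-UC-3 cells. With the block, which takes the spread between replicate numbers out of the error, it was 22, all higher in UM-UC-3 cells, against 61.6% of all genes. None of the 18 S phase genes was called between the lines without the block, and the median of that list was -0.08. HIST2H2AA3 was not called without the block, with 1.10, 1.36 and 5.31 RPKM in UM-UC-3 cells and 2.33, 3.23 and 1.95 RPKM in T24 cells, ranges that overlap.

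Genes that act on histone transcripts and proteins were taken as lists. Of 16 genes for transcription and 3' end formation of histone mRNA, 0 were called by edgeR over both siRNAs and both lines with and without the block, with 2 and 0 at an unadjusted p under 0.05. The share of all genes called was 12.4% with and 0.238% without the block. SLBP, which binds the stem-loop, had a log2 fold change of -0.20 (adjusted p = 0.77 without and 0.080 with the block), NPAT of -0.13 (adjusted p = 0.80 and 0.34) and CASP8AP2, an NPAT partner, of -0.06 (adjusted p = 0.96 and 0.78). Between the lines 6 of these 16 were called, a share under the 44.1% of all genes, 4 higher in UM-UC-3 cells (ZNF473, CCNE1, LSM11 and POU2F1, the gene of OCT1) and 2 lower (CSTF2 by 1.36 and SLBP by 0.96 on the log2 scale). SLBP was lower in the line with the higher histone level.

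The histone genes outside the clusters, which make variants, included none that rose. Of 13 tested, 0 were called over both siRNAs and both lines without the block (edgeR gave 3 an unadjusted p under 0.05) and 6 with it, against 12.4% of all genes. All 6 were lower: CENPA (-0.74), H1FX (-0.55), H2AFX (-0.49, adjusted p = 0.0077, and 0.53 without the block), H2AFY (-0.29), H2AFZ (-0.24) and H2AFV. Between the lines 6 of 13 were called without the block, near the 44.1% of all genes, 1 higher and 5 lower in UM-UC-3 cells. H3F3B, an H3.3 gene, was lower by 2.28 on the log2 scale (adjusted p = 1.4e-08), H1F0 by 3.00 and H3F3C by 2.31, while H2AFY2 was higher by 1.63. H3F3B did not pass the test after knockdown (-0.03).

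With the block 15 of the 18 S phase genes were called over both siRNAs and both lines, all lower. Among these were UHRF1 (-0.50), TYMS (-0.45), CLSPN (-0.45) and GINS2 (-0.43). Without the block 0 were called (1 at an unadjusted p under 0.05 in edgeR). The median of the S phase list was alike in both fits, -0.37 with the block and -0.36 without it. That of the clustered histone genes without the block was 0.43. Histone chaperones had 7 of 16 called with the block, 6 lower (CHAF1B -0.49, HJURP -0.43, SSRP1 -0.40 and NASP -0.34) and ASF1A higher (0.37), and 0 without it (3 at an unadjusted p under 0.05). The share of all genes called with the block over both siRNAs and both lines, in either direction, was 12.4%. Of 12 tested RNAs that lack a poly(A) tail, such as RN7SL2, 0 were called over both siRNAs and both lines with or without the block, and 0 had an unadjusted p under 0.05. The summed level of all 27 genes of that list averaged 62.7 to 81.4 CPM over the replicate numbers of the lines. Of 7 tested epithelial and urothelial markers 3 were lower with the block over both siRNAs and both lines and 0 were called without it (0 at an unadjusted p under 0.05), and their part in the histone results was not tested.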

How the data were processed

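RNA from 18 cultures of UM-UC-3 and T24 cells was made into libraries with a stranded mRNA kit that adds molecular identifiers. According to the submitters' processing notes, Trimmomatic 0.36, STAR 2.5.3, featureCounts of Subread 1.5.1 and GRCh38 were used. The tests and CPM used the deposited raw read counts per gene, not normalized, made by the authors. RPKM values were also those deposited by the authors. Not given in the sources used here are the release of the annotation, whether strand was used in counting, how reads with several positions were handled and whether identifiers were collapsed. A count may thus hold PCR copies or both mates of a pair, and depth sets only the counting error.

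RPKM recomputed from the counts, with the exon lengths and library totals of the table, matched the deposited RPKM (largest relative difference 6.4e-07). Genes were kept by filterByExpr (minimum count 10), scaled by TMM and tested with edgeR 4.0.16 (R 4.3.3, quasi-likelihood, robust, Benjamini-Hochberg over 20144 genes, threshold 0.05) in 1 model of 18 libraries and 6 groups. Tables were made in Python 3.11.15 with pandas 2.3.3. Alternatives were a replicate block (the number, separately in each line), DESeq2 size factors, the DESeq2 1.42.0 test, no filter, each line alone and each library left out. Halved counts and leaving out the replicate 3 libraries of UM-UC-3 cells were chosen after seeing the data. The tests of knockdown with the block were not repeated with halved counts. The numbers were taken to pair the libraries, because deviations of same-numbered libraries from their group means correlated at 0.115 to 0.576 in UM-UC-3 and 0.356 to 0.686 in T24 cells, above 0.1 in every pair. For libraries of different groups and numbers the correlation was -0.545 to 0.269 in UM-UC-3 cells (median -0.110, against 0.433). In T24 cells it was -0.567 to 0.210 (median -0.404, against 0.524). The ranges thus overlapped in UM-UC-3 but not in T24 cells. Deviations within a group cancel out, so positive correlations for the same number push those for different numbers down. The contrast between the 2 kinds is therefore not separate evidence of pairing. In simulated data with 19693 genes, for the comparison over both siRNAs and both lines, 83.7% of 2-fold and 95.8% of 4-fold changes were recovered, with 6 false calls of 179. The simulated counts had the same dispersion (0.05) for every gene and no difference between replicate numbers. These rates therefore do not give the share of true changes that would be called among the histone genes here.

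The members and lists were chosen with earlier results of these data known. Named were the 10 members highest by mean RPKM, those called in any comparison (the 4 largest each way where over 8 were called), the 2 lowest in p where none was called, the largest rise and fall in each comparison with siNC, genes of other lists called over all comparisons or between lines (up to 4 each way), and SLBP, NPAT, CASP8AP2, H2AFX, H3F3B and ACAT1. Further members of the groups called, of the head-to-head pairs and of the sequence sets, and CD68, KRT8, KRT18, CDH1, GATA3, UPK2, PTPRC, H2AFV and RN7SL2, were named after their values were seen.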

Additional observations from a re-analysis of the deposited data

Results flagged for a closer look

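The effect of the siRNAs differed from each other by a test of the difference itself, with the replicate number as a block, in 4 of the 37 tested cluster histone genes, against 20.6% of all genes, so the number called is below the background. The log2 difference of siACAT1-2 from siACAT1-1 over both cell lines was -1.10 for the H4 gene HIST1H4H (edgeR adjusted p = 0.0015), -1.08 for the H2B gene HIST1H2BC (adjusted p = 0.022), -0.80 for the H4 gene HIST2H4A (adjusted p = 0.013) and -0.69 for the H2A gene HIST1H2AC (adjusted p = 0.017). Without the block none of the 4 passed the threshold.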

How the results depend on the processing

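The replicate block raised the histone genes called from 1 to 12 for T24 siACAT1-1, from 0 to 2 for T24 siACAT1-2, from 0 to 10 over both siRNAs and both lines, from 0 to 4 between the siRNAs and from 14 to 22 between the lines. With the block and without UM-UC-3 replicate 3 these were 11, 1, 6 and 3 for the first 4, and without the block 0 for T24 siACAT1-1. With no filter the calls were 10 for T24 siACAT1-1, 7 over both siRNAs and both lines, 2 between the siRNAs and 5 for the T24 replicate number. DESeq2 called 2, 3 and 1 for T24 siACAT1-1, over both siRNAs and both lines and between the siRNAs, and each line alone gave 0 for T24 siACAT1-1. The cause of these changes was not tested.

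The median log2 fold change for UM-UC-3 siACAT1-1 was 0.41 with halved counts and 0.48 without UM-UC-3 replicate 3. For T24 siACAT1-1 it was 0.29 with no filter, 1.39 in the line alone and 1.21 with halved counts, and for T24 siACAT1-2 it was 0, 0.27 and 0.28. Over both siRNAs and both lines it was 0.17 with no filter, 0.62 with halved counts, 0.51 without UM-UC-3 replicate 3 and 0.54 with the block as well. The median of the line difference in knockdown effect was -0.41 with the filter and 0.069 without it. Alternatives differ in the members tested, 70 with no filter, 23 with halved counts and 19 in T24 cells alone.

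Leaving out 1 library gave 0 to 3 calls for T24 siACAT1-1, 0 to 1 over both siRNAs and both lines, 6 to 15 between the lines, 8 to 17 for the UM-UC-3 replicate number and 2 to 6 for T24, and 0 for the others. The medians ranged from -0.0062 to 0.86 (UM-UC-3 siACAT1-1, below 0 without its replicate 3), 0.022 to 0.76 (UM-UC-3 siACAT1-2), 0.73 to 1.28 (T24 siACAT1-1), 0.070 to 0.51 (T24 siACAT1-2), 0.32 to 0.70 (both siRNAs and both lines), -0.66 to 0.24 (line difference in knockdown effect, above 0 without UM-UC-3 siNC replicate 3), -0.58 to -0.026 (between the siRNAs) and 1.10 to 1.60 (UM-UC-3 against T24 siNC). In the T24 replicate number the difference of replicate 3 from 1 was 0.0062 and 0.35 for HIST1H2AE without siACAT1-2 replicate 1 or 3, and -0.027 for HIST3H2A without siACAT1-1 replicate 1, each with the other sign; the ranges were -0.96 to 0.35 and -0.027 to 0.526. Low counts limit the 33 untested members.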
